A study of Mus musculus with 6 samples.

Results

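Expression of the p53 pathway was compared between mouse embryonic fibroblasts labelled SphK2 null and fibroblasts labelled wild type. The list covers 34 genes: p53 and its 2 relatives, its feedback regulators, and target genes grouped by role as arrest and growth control, apoptosis, repair and 2 others. Each was matched by its mouse symbol to 1 Ensembl identifier among the 46983 genes of the count files. All libraries are from cells of the C57BL/6 strain, taken at embryonic age 14 days and grown to passage 16, and the cells were kept in DMEM with 10% serum. Neither group had a stated treatment. SphK2 is sphingosine kinase 2, which makes the lipid signal sphingosine-1-phosphate. Each label was carried by 3 libraries. Nothing in the labels says that they came from separate cultures or embryos, so p-values reflect only how these libraries vary, possibly for technical reasons. The labels used here do not describe the null allele.

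p53 is a transcription factor that is held low by Mdm2, a ubiquitin ligase, and is stabilised when DNA is damaged or when the Arf product of Cdkn2a binds Mdm2. Stabilised p53 raises transcripts of genes that stop the cell cycle, repair DNA or trigger apoptosis, and also of Mdm2, which closes a feedback loop. Embryonic fibroblasts in long culture are known to escape senescence through loss of p53 or of Arf. Because p53 is controlled mostly through protein stability, transcript counts of Trp53 do not measure its activity.

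Libraries held 16804841 to 19148434 counts in genes with the null label and 15598566 to 23681718 with the wild-type label. Levels are given as CPM, counts per 1000000 counts of the library, scaled with TMM factors for composition. Within a label, libraries correlated across genes at Pearson's r of 0.995 to 0.996, and between labels at 0.812 to 0.815, where genes are not independent replicates. Sphk2 did not go the way its label names: it stood at 49.4, 51.6 and 49.1 CPM in null-labelled and 28.1, 27.4 and 26.3 CPM in wild-type-labelled libraries. A count over all exons does not show which exons were transcribed. Of the exonic bases of Sphk2, 20.8% are shared with Dbp and Rpl18 on the other strand, where reads were counted for none of these genes. Libraries are called by their labels throughout. Marker lists of cell types differed as well. Calls are at the threshold given below, past which 38.1% of all 15199 genes tested were higher and 41.1% lower in null-labelled libraries. All 13 fibroblast markers were lower in the null-labelled libraries, and Thy1 had no count there. The 13 summed to 3452 to 3489 CPM in null-labelled against 14969 to 15419 CPM in wild-type-labelled libraries. Vim alone averaged 3211 CPM in null-labelled and 5622 CPM in wild-type-labelled libraries. In the same order, Pdgfra averaged 89.4 and 250 CPM, Col1a1 1.68 and 623 CPM, Col1a2 7.39 and 2605 CPM, and Fn1 3.37 and 2036 CPM. Of 10 trophoblast markers, 2 were higher and 1 lower. They summed to 1234 to 1286 CPM in null-labelled and 11.9 to 13.8 CPM in wild-type-labelled libraries, with 1246 and 10.8 CPM of it from Esx1, while the trophoblast markers Cdx2 and Prl3d1 had no count in any library. Of 11 epithelial markers, 2 were higher and 2 lower, and they summed to 386 to 413 CPM in null-labelled and 110.4 to 115 CPM in wild-type-labelled libraries, mostly Krt8. Those of endothelium (1 of 7 higher, 1 lower) and macrophages (2 of 7 higher, 1 lower) summed to at most 6.56 CPM in any library. The endoderm list (2 of 10 higher, 4 lower) summed to 628 to 650 CPM in null-labelled and 1009 to 1035 CPM in wild-type-labelled libraries. Sox17 and Lama1 were at 0 in all. These sums were mostly Sparc, at 576 and 811 CPM in the same order, and Dab2, at 39.3 and 207 CPM, both lower. The 2 higher were Gata4, with 112 and 3 counts over the null-labelled and wild-type-labelled libraries, and Sox7, with 1110 and 208 counts. Gata6, with 1 and 49 counts, and Afp, with 96 and 137 counts, were also lower. Of 8 pluripotency markers only Sox2 was called, lower in null-labelled libraries. The list summed to 0.48 to 0.973 CPM in null-labelled and 112 to 113 CPM in wild-type-labelled libraries, and Zfp42, Dppa5a, Utf1 and Lin28a were at 0 in all of them. The part of these differences in the results below was not tested, and in cultures sequenced in bulk fewer cells of a type and less RNA per cell cannot be told apart.

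A p53 response element is built from repeats of a 10-base unit, here called the p53 decamer. Promoter windows of 300 bases, 250 before to 50 after a RefSeq start site on GRCm38.p6, were available for 25 of the 34 genes. Exact matches of the decamer consensus, which reads the same on both strands, stood in the windows of 10 of the 25 genes (40% of genes; 11 of 33 windows, 33.3%). Among all promoters of the table the share was 9.55% of 27025 genes and 8.36% of windows. Among 26 other p53 targets, from a list described further below, the share was 19.2% of genes and 11.6% of 43 windows. The median GC content of the windows was 62.7% in the list, 61.3% in these other targets and 52.7% over all promoters. The matches are shown because they set the genes with a p53-like motif at the start site beside their measured differences. Capitals mark the decamer, with 10 bases on either side, on the strand of the gene.

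Trp53 (chr11:69580274-69580303, plus strand): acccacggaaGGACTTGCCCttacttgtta
Mdm2 (chr10:117710925-117710954, minus strand): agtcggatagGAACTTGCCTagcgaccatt
Ppm1d (chr11:85311112-85311141, plus strand): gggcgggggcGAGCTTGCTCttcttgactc
Ccng1 (chr11:40755452-40755481, minus strand): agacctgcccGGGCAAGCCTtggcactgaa
Gadd45a (chr6:67037428-67037457, minus strand): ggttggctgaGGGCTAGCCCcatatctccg
Sesn1 (chr10:41887256-41887285, plus strand): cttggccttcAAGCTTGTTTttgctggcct
Bax (chr7:45467080-45467109, minus strand): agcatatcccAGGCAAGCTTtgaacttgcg
Aen (chr7:78895927-78895956, plus strand): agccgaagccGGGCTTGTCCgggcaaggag
Ei24 (chr9:36797325-36797354, minus strand): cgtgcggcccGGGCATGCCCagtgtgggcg
Polk (chr13:96519399-96519428, minus strand): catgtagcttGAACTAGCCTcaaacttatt

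Of these 10 genes, 6 were higher, 3 lower and 1 not past the threshold in null-labelled libraries. Of the 15 genes whose windows held no match, 3 were higher, 5 lower, 6 not past the threshold and 1 not tested. Over all genes tested 38.1% were higher and 41.1% lower, and whether calls differ with the decamer was not tested. The decamer of Sesn1 and that of Polk lie in the window of an alternative start site. Start-site windows leave out the introns, where the known p53 element of Mdm2 lies, and a missing match says only that these letters are not in the window. No window of the list held 2 decamers spaced by at most 13 bases. Ddb2, Perp, Pmaip1, Rrm2b, Tnfrsf10b, Trp53inp1, Trp63, Xpc and Zmat3 were without a window.

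The genes of the list went both ways. Of 31 genes that passed the filter on low counts, 11 were higher (background 38.1% of all 15199 genes tested) and 12 lower (background 41.1%) in null-labelled libraries. The threshold was an adjusted p of 0.05 in edgeR's quasi-likelihood test. Together these were 74.2%, near the background of 79.2%. Past the threshold and over 2-fold were 2 higher, Gdf15 and Fas (background 10.4%), and 3 lower, Pmaip1, Ddb2 and Eda2r (background 15.8%), together 16.1% with a background of 26.2%. The median log2 fold change was 0.0044 in the list and -0.02 over all genes tested. The sign of the list's median turned in 6 of 13 alternative fits that changed the scaling, tool, filter, block or libraries. The median size of the log2 fold change, without its sign, was 0.40 in the list and 0.47 over all genes. In 24 of the 31 genes the groups did not overlap (77.4%, background 79.9%).

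**Figure D1:**
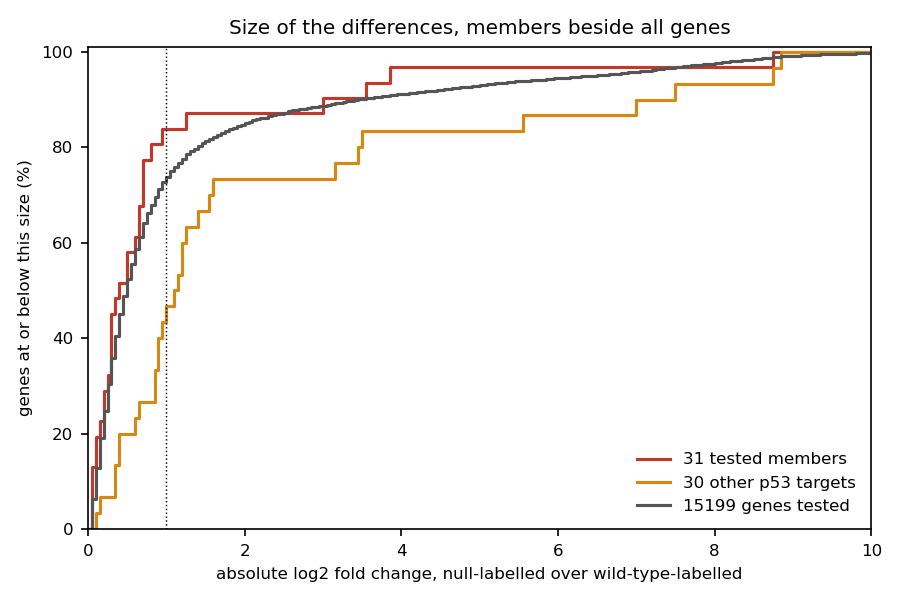
Share of genes (vertical axis, %) whose absolute log2 fold change, null-labelled over wild-type-labelled, is at or below the value on the horizontal axis, which ends at 10, for the 31 tested genes of the p53 list, 30 other p53 targets and all 15199 genes. At the dotted 2-fold line the p53 list lies at 83.9%, above the other targets at 46.7% and all genes at 73.8%. Sizes of genes with no count under 1 label, such as Pmaip1, are fitted values that depend on the prior count.

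Trp53 itself did not differ beyond the spread of the libraries. It stood at 222, 227 and 229 CPM in null-labelled and 222, 226 and 224 CPM in wild-type-labelled libraries. The groups overlapped, and the log2 fold change was 0.015 ± 0.027 (SE; edgeR adjusted p = 0.615). Scaling by library totals alone gave a log2 fold change of 0.073 with an edgeR adjusted p = 0.00776. Per kilobase of exon, the level of Trp53 was 55.9 ± 0.85 in null-labelled and 55.3 ± 0.48 CPM in wild-type-labelled libraries (SD, n = 3), second in the list to Bax. Its relatives were close to silent. Trp63, a p53 relative of squamous epithelia, had 3, 5 and 1 counts in null-labelled and 12, 8 and 14 in wild-type-labelled libraries. Null-labelled over wild-type-labelled, the ratio was 0.275 (95% counting interval 0.116 to 0.586). Trp73 had 1 count over all 6 libraries. Trp63, Trp73 and Perp were the 3 genes of the list below the filter.

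The upstream and downstream cell cycle inhibitors next to p53 had larger fold changes than Trp53, a difference between genes that was not tested. Cdkn2a, which encodes the Mdm2 inhibitor Arf and the kinase inhibitor p16 from overlapping exons, had 7, 8 and 10 counts in null-labelled libraries and 6492, 4368 and 5339 in wild-type-labelled ones. Its ratio of wild-type-labelled over null-labelled was 623, with a 95% counting interval of 422 to 963. Gene counts do not separate its transcripts. Cdkn1a, the p21 inhibitor and a main arrest target of p53, stood at 118, 122 and 120.2 CPM in null-labelled and 8.60, 14.4 and 11.8 CPM in wild-type-labelled libraries. Its log2 fold change was 3.42 ± 0.056 (SE; edgeR adjusted p = 1.31e-114). Neither gene's groups overlapped. Of the 2 RefSeq windows of Cdkn1a, the upstream one held 2 decamers within 13 bases of each other, as 24 of all 32851 windows did. The downstream window, chr17:29093519-29093818, held none.

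Cdkn1a, upstream decamer (chr17:29090896-29090925, plus strand): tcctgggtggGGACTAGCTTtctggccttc
Cdkn1a, downstream decamer (chr17:29090918-29090947, plus strand): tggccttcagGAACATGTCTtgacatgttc

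**Figure D2:**
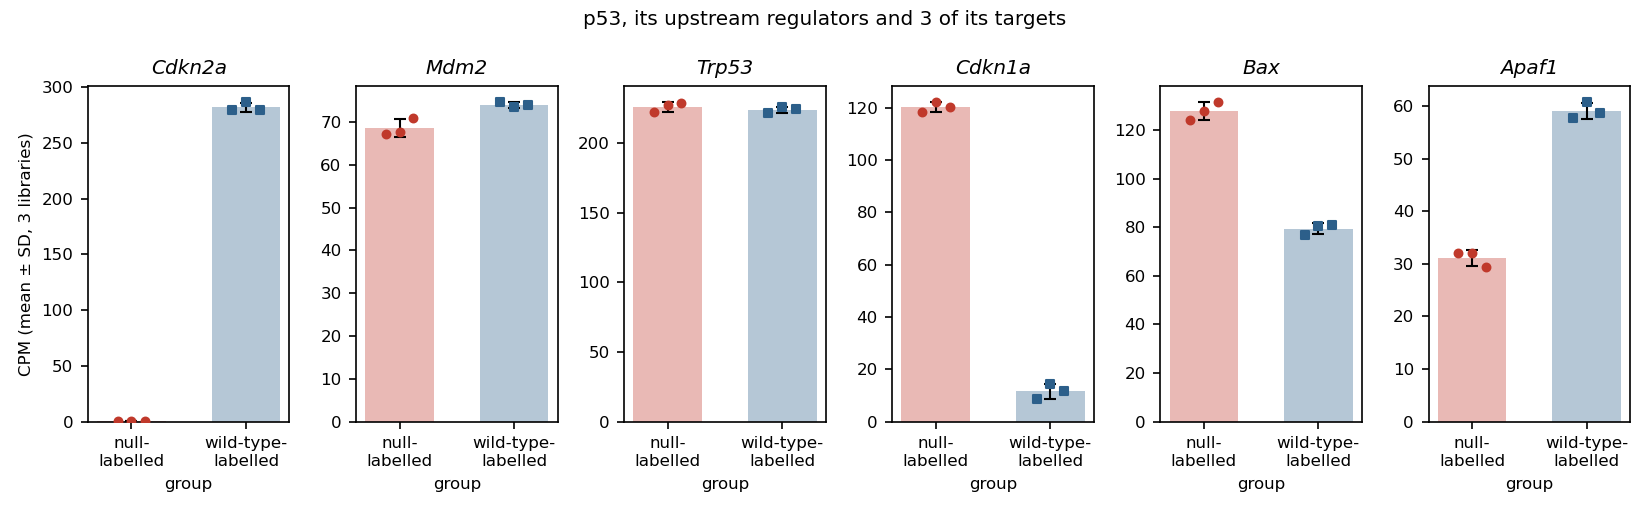
CPM (vertical axes, each from 0) of Cdkn2a, Mdm2, Trp53, Cdkn1a, Bax and Apaf1 in the 3 null-labelled (circles, left) and 3 wild-type-labelled libraries (squares, right), with bars at the mean and whiskers of 1 SD. Trp53 stands at 226 CPM in null-labelled and 224 CPM in wild-type-labelled libraries, while Cdkn2a falls to 0.453 CPM in null-labelled libraries, against 282 CPM in wild-type-labelled ones, and Cdkn1a stands at 120.3 CPM in null-labelled and 11.6 CPM in wild-type-labelled ones.

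The feedback regulators changed little, each by less than 1.5-fold. Mdm2, the ligase that marks p53 for degradation, stood at 67.1, 67.8 and 70.9 CPM in null-labelled and 74.7, 73.4 and 74.0 CPM in wild-type-labelled libraries. All 3 null-labelled libraries were below the wild-type-labelled ones. The log2 fold change was -0.11 ± 0.040 (SE; edgeR adjusted p = 0.00778), and an adjusted p = 0.218 when libraries were scaled by their totals alone. Mdm4, which binds p53 and blocks its activation domain, averaged 85.4 ± 2.19 and 84.7 ± 5.62 CPM in null-labelled and wild-type-labelled libraries (SD, n = 3), with an edgeR adjusted p = 0.918. Ppm1d, the phosphatase Wip1 that switches off p53 and its kinases, was higher, at 43.3, 43.0 and 38.9 CPM in null-labelled against 30.5, 29.4 and 28.8 CPM in wild-type-labelled libraries. Its log2 fold change was 0.49 ± 0.052 (SE; edgeR adjusted p = 9.7e-21). Ccng1, cyclin G1, which recruits a phosphatase to Mdm2, was also higher, with 70.8 ± 2.21 CPM in null-labelled and 62.1 ± 2.66 CPM in wild-type-labelled libraries (SD, n = 3) and a log2 fold change of 0.19 ± 0.041 (SE).

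Of 7 genes of arrest and growth control, 2 were higher, 3 lower and 2 not past the threshold, and none changed by 2-fold. The share called, 71.4%, was near the background of 79.2%. Sertad1, a regulator of CDK4 and of E2F transcription, stood at 39.2, 38.0 and 38.5 CPM in null-labelled and 22.0, 22.8 and 23.5 CPM in wild-type-labelled libraries, a log2 fold change of 0.76 ± 0.056 (SE). Gadd45a, a stress protein that binds PCNA and inhibits the mitotic kinase complex, stood at 14.3, 14.5 and 15.2 CPM in null-labelled and 9.08, 10.4 and 8.43 CPM in wild-type-labelled libraries. Its log2 fold change was 0.67 ± 0.087 (SE), and 19.1% of its exonic bases are shared with a gene on the other strand, where reads were counted for neither gene. The sestrins, stress-induced inhibitors of the growth kinase complex mTORC1, were both lower. Sesn1 stood at 27.3, 27.2 and 26.1 CPM in null-labelled and 34.6, 36.7 and 35.4 CPM in wild-type-labelled libraries (log2 fold change -0.40 ± 0.055 SE). Sesn2 averaged 36.3 ± 1.29 and 45.9 ± 1.59 CPM in null-labelled and wild-type-labelled libraries (SD, n = 3), a log2 fold change of -0.34 ± 0.049 (SE). Of the polo-like kinases, Plk2 was lower (-0.27 ± 0.039 SE), whereas Plk3 had a log2 fold change of -0.083 ± 0.066 (SE) with an edgeR adjusted p = 0.239. Whether the pair differ in their response was not tested. Btg2, an antiproliferative gene that acts through mRNA deadenylation, was low under both labels, at 2.65 ± 0.313 and 2.98 ± 0.386 CPM in null-labelled and wild-type-labelled libraries (SD, n = 3; edgeR adjusted p = 0.412). The largest edgeR adjusted p among the 5 changed genes of this role was 4.1e-14 for the 2 that rose and 5.44e-12 for the 3 that fell.

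**Figure D3:**
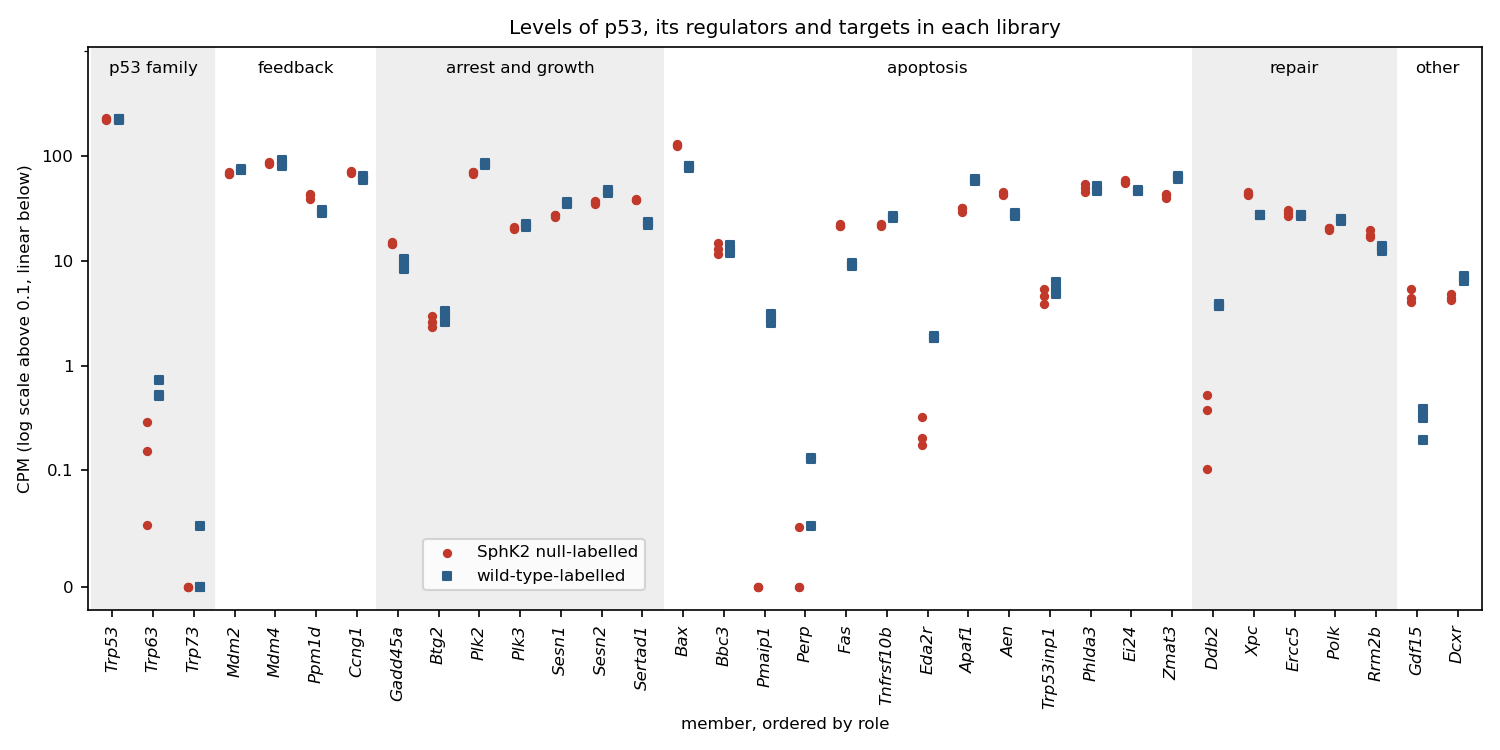
CPM of the 34 genes (vertical axis, log scale above 0.1 and linear below) in each null-labelled (circles) and wild-type-labelled library (squares), ordered by role. Most genes sit at similar heights under both labels; Pmaip1, Eda2r and Ddb2 are lower and Gdf15 and Fas higher in null-labelled libraries.

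Of 13 apoptosis genes, 12 were tested, and 4 were higher, 5 lower and 3 not past the threshold. The 75% called were near the background of 79.2%, which is itself spread over both directions (38.1% higher, 41.1% lower). Among the mitochondrial genes, Bax, which forms pores in the outer mitochondrial membrane, stood at 124, 128 and 132 CPM in null-labelled and 76.9, 80.6 and 80.8 CPM in wild-type-labelled libraries. Its log2 fold change was 0.69 ± 0.035 (SE; edgeR adjusted p = 3.86e-87), and it had the highest level per kilobase of exon in the list, at 147 ± 4.18 and 91.4 ± 2.55 CPM in null-labelled and wild-type-labelled libraries (SD, n = 3). Bax lies on chromosome 7, 0.243 Mb from Sphk2, where the median log2 fold change of the chromosome's 1140 tested genes was 0.18. Of the BH3-only genes, Bbc3, known as Puma, had 13.1, 11.6 and 14.8 CPM in null-labelled and 14.2, 12.7 and 11.99 CPM in wild-type-labelled libraries. Its groups overlapped, with an edgeR adjusted p = 0.876. Pmaip1, known as Noxa, had no count in any null-labelled library and 66, 47 and 49 counts in the wild-type-labelled ones. It was at least 51.9-fold lower, with 3 counts over the null-labelled group as the bound.

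Apaf1, the scaffold of the apoptosome that activates caspase 9 once cytochrome c is released, was lower. It stood at 32.0, 32.1 and 29.4 CPM in null-labelled and 57.6, 60.8 and 58.7 CPM in wild-type-labelled libraries. This was a log2 fold change of -0.92 ± 0.048 (SE; edgeR adjusted p = 5.83e-80). Perp, a membrane protein of desmosomes, was barely detected, with 1 count over the null-labelled and 6 over the wild-type-labelled libraries, a ratio of 0.173 whose 95% counting interval reached from 0.00377 to 1.43, null-labelled over wild-type-labelled.

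The receptors of this role differed from each other in direction. Fas, the receptor of Fas ligand, was higher, at 22.4, 21.4 and 21.6 CPM in null-labelled against 9.21, 9.58 and 8.85 CPM in wild-type-labelled libraries, a log2 fold change of 1.25 ± 0.079 (SE; edgeR adjusted p = 3.46e-55). Tnfrsf10b, the mouse death receptor of TRAIL, was lower, at 21.6, 22.3 and 21.8 CPM in null-labelled against 26.3, 25.7 and 27.1 CPM in wild-type-labelled libraries (log2 fold change -0.27 ± 0.062 SE). Eda2r, the receptor of the A2 form of ectodysplasin, had 4, 3 and 6 counts in null-labelled and 43, 29 and 35 counts in wild-type-labelled libraries. Its log2 fold change was -2.95 ± 0.35 (SE; edgeR adjusted p = 4.44e-17), and at these counts the ratio of 0.126 had a 95% counting interval of 0.0651 to 0.225, null-labelled over wild-type-labelled.

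Of the other genes of this role, Aen, a nuclease that helps degrade DNA in apoptosis, was higher at 43.4, 42.6 and 45.0 CPM in null-labelled against 27.0, 28.7 and 28.3 CPM in wild-type-labelled libraries (log2 fold change 0.65 ± 0.052 SE). Ei24, a membrane protein of the endoplasmic reticulum, was higher by a log2 fold change of 0.29 ± 0.045 (SE). Zmat3, an RNA-binding zinc finger protein, was lower, at 42.3, 43.9 and 40.2 CPM in null-labelled against 64.5, 61.0 and 62.7 CPM in wild-type-labelled libraries (log2 fold change -0.58 ± 0.045 SE). Phlda3, which competes with the kinase AKT for membrane lipids, did not pass the threshold, at 49.6 ± 4.26 and 48.7 ± 2.85 CPM in null-labelled and wild-type-labelled libraries (SD, n = 3; edgeR adjusted p = 0.551). Trp53inp1, a stress protein that acts in autophagy, averaged 4.65 ± 0.772 and 5.42 ± 0.718 CPM in null-labelled and wild-type-labelled libraries (SD, n = 3), with an edgeR adjusted p = 0.14 that became 0.0364 without null-labelled replicate 3.

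**Figure D4:**
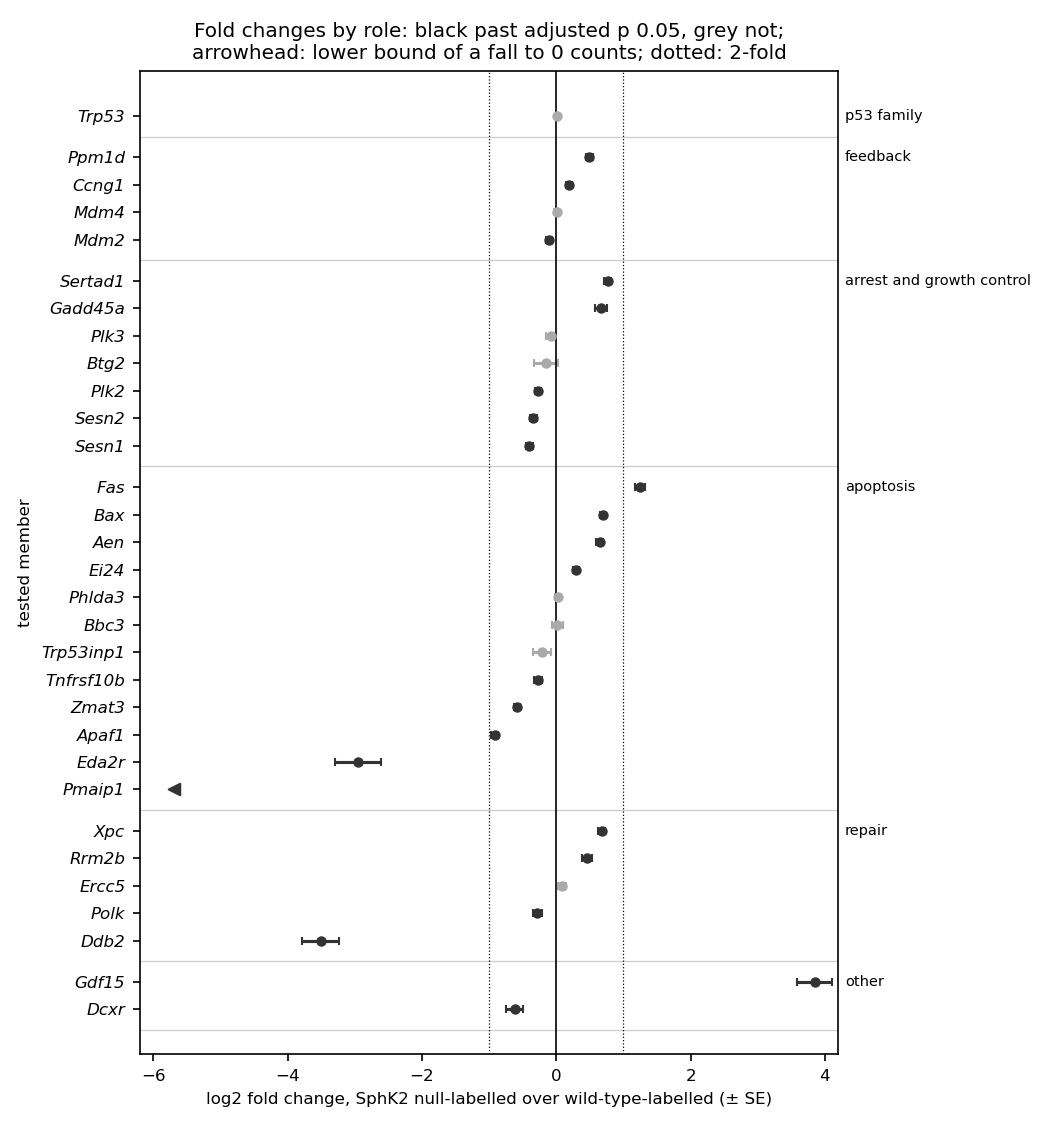
Log2 fold change, null-labelled over wild-type-labelled, with SE bars, for the 31 tested genes in rows by role; black points passed an edgeR adjusted p of 0.05, grey ones did not, and dotted lines mark 2-fold. The arrowhead of Pmaip1 is a bound of at least 51.9-fold lower. Within apoptosis the points run from Fas at 1.25 through 0 to Eda2r at -2.95.

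Of 5 repair genes, 2 were higher, 2 lower and 1 not past the threshold, and the 80% called were near the background of 79.2%. The 2 proteins that find lesions for nucleotide excision repair went opposite ways. Ddb2, which recognises ultraviolet lesions and is a p53 target in human cells, had 2, 9 and 7 counts in null-labelled and 87, 59 and 71 counts in wild-type-labelled libraries. This was a log2 fold change of -3.51 ± 0.27 (SE; edgeR adjusted p = 2.93e-37), and the ratio of 0.0862 had a 95% counting interval of 0.0502 to 0.14, null-labelled over wild-type-labelled. Of the exonic bases of Ddb2, 23.8% are shared with Acp2 on the other strand, where reads were counted for neither gene. Xpc, the damage sensor that binds distorted DNA, was higher, at 45.5, 43.0 and 43.3 CPM in null-labelled against 27.7, 27.4 and 27.3 CPM in wild-type-labelled libraries. Its log2 fold change was 0.68 ± 0.053 (SE; edgeR adjusted p = 1.25e-37). Ercc5, the nuclease XPG that cuts on one side of a lesion, stood at 28.8 ± 1.78 and 27.0 ± 0.398 CPM in null-labelled and wild-type-labelled libraries (SD, n = 3). Its edgeR adjusted p was 0.14, which became 0.0449 without null-labelled replicate 1 and 0.0141 with scaling by library totals. Rrm2b, the ribonucleotide reductase subunit induced by p53, was higher at 19.9, 16.8 and 17.5 CPM in null-labelled against 14.0, 13.3 and 12.3 CPM in wild-type-labelled libraries (log2 fold change 0.45 ± 0.076 SE). Polk, a polymerase that copies past damaged bases, was lower by a log2 fold change of -0.28 ± 0.064 (SE).

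Gdf15, a stress cytokine of the TGF-beta family, had the largest rise of the list. It had 79, 75 and 100 counts in null-labelled and 9, 3 and 6 counts in wild-type-labelled libraries, a log2 fold change of 3.85 ± 0.26 (SE; edgeR adjusted p = 5.71e-49). The ratio of 14.7 had a 95% counting interval of 9.09 to 25.2. Gdf15 lies on chromosome 8, which had the highest median among the chromosomes that carry genes of the list, 0.64 over 781 tested genes. Dcxr, a reductase of sugars and dicarbonyls, was lower, at 4.25, 4.79 and 4.42 CPM in null-labelled against 7.14, 6.36 and 7.02 CPM in wild-type-labelled libraries (log2 fold change -0.62 ± 0.13 SE, edgeR adjusted p = 1.37e-06).

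Further p53 targets were drawn from a list of 30 genes outside the 34, all of which were tested. Of these, 18 were higher (background 38.1%) and 12 lower (background 41.1%), which is 100% called with a background of 79.2%, and 9 of those higher and 7 of those lower passed 2-fold (together 53.3%, background 26.2%). Their median log2 fold change was 0.35. With DESeq2, 15 were higher and 12 lower, where of all 15199 genes 5206 were higher and 5798 lower. Pml passed the threshold at an edgeR adjusted p = 0.0448 with overlapping groups. This list was chosen with earlier results of these data known, so its shares are not independent of them. Beside Cdkn1a, the largest rises were in Fam212b, an inhibitor of the kinase PAK4, with 3.55 ± 0.424 CPM in null-labelled and 0.304 ± 0.0722 CPM in wild-type-labelled libraries, and in the glutaminase Gls2, with 15.5 ± 0.388 and 5.09 ± 0.546 CPM in null-labelled and wild-type-labelled libraries (SD, n = 3). The third sestrin, Sesn3, had 1 count over the null-labelled and 592 over the wild-type-labelled libraries, a ratio of wild-type-labelled over null-labelled of 569 with a 95% counting interval of 102 to 22532. Zfp365, a zinc finger gene, had 4 and 800 counts and Psrc1, a microtubule-binding protein, 7 and 349 counts over the null-labelled and wild-type-labelled libraries.

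Of 24 genes that regulate p53, all tested, 9 were higher (background 38.1%) and 12 lower (background 41.1%), together 87.5% with a background of 79.2%, and 2 passed 2-fold (8.33%, background 26.2%). Of the damage kinases, Chek2 stood at 31.9 ± 1.04 and 23.5 ± 2.45 CPM in null-labelled and wild-type-labelled libraries (SD, n = 3), a log2 fold change of 0.42 ± 0.058 (SE), and Atr had a log2 fold change of 0.38 ± 0.038 (SE). The ASPP proteins bind p53 and steer its choice of targets. Of the activators, Trp53bp2 (ASPP2), named here to complete the family after its values were seen, was lower by a log2 fold change of -0.16 ± 0.045 (SE; edgeR adjusted p = 0.00048), and Ppp1r13b (ASPP1) had 3, 4 and 2 counts in null-labelled and 647, 439 and 483 counts in wild-type-labelled libraries, while the inhibitor Ppp1r13l (iASPP) was higher by a log2 fold change of 0.56 ± 0.068 (SE). Trp53bp1, the repair scaffold 53BP1 that also binds p53, was lower by a log2 fold change of -0.78 ± 0.038 (SE). Cdkn2a, described above, had the largest fall of this list.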

How the data were processed

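Per the labels' protocols, total RNA of 6 samples was sequenced as single reads of 51 bp. The authors' deposited counts are whole reads per Ensembl gene over exons, not normalized. Per the file headers they were made with featureCounts 1.6.2 from Ensembl release 83 on GRCm38. The recorded command sets no strand, overlap or multimapping option, so reads over several genes or sites were not counted. The submitters' processing notes list Subread 1.6.2, FastQC 0.11.2, Trimmomatic 0.33 and, unlike the headers, featureCounts 1.2.6. Of the 46983 rows, each an Ensembl gene, 46488 had a gene symbol (98.9%).

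From these counts, edgeR 4.0.16 (R 4.3.3) with filterByExpr (15199 genes), TMM scaling and robust quasi-likelihood F-tests compared 3 null-labelled with 3 wild-type-labelled libraries. P-values were adjusted over all genes by Benjamini-Hochberg. An SE is the log2 fold change over the square root of F. Bounds use 3 counts over a group, and intervals are exact binomial. Both cover counting error only, since reads are not independent molecules. A count of 3 is 0.129 to 0.197 CPM in a library. On counts simulated for this comparison (14863 genes after filtering), the test recovered 60% of 50 genes changed 1.2-fold. It recovered 86% of 50 changed 1.5-fold, and 88% and 92% of those changed 2-fold and 4-fold, and called 7 of 14663 unchanged genes. In the simulation few genes changed, equally up and down, and all genes shared a common dispersion. In the data 79.2% of genes were called, so these rates need not hold for these libraries.

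Genes outside the 34 were named if among the 3 highest or lowest past the threshold in their list. Their average log2 CPM had to be at least 1. Sphk2, Cdkn1a and Cdkn2a were added. Pml, Trp53bp2, Cdkn2b, Mtap, the cell type markers and genes that share exonic bases were named outside this rule. Genes and lists were chosen with earlier results of these data known. Decamers were matched in RefSeq promoters. DESeq2 1.42.0, limma 3.58.1 (voom), other scalings and filters, a replicate block and leaving out each library were alternatives.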

Additional observations from a re-analysis of the deposited data

How the results depend on the processing

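Of the 23 calls in the list, all were shared in direction with DESeq2, limma-voom, median-of-ratios scaling, a filter of over 1 CPM in 3 libraries and each fit without 1 library. With scaling by library totals 22 were shared, Mdm2 was lost, and Trp53 and Ercc5 were gained. Without a filter Trp63 was called in addition. The list's median log2 fold change, 0.0044, was -0.12 with no filter on low counts, where 34 genes entered, and ran from -0.067 (without null-labelled replicate 3) to 0.0056 when 1 library was left out. The counts over 2-fold, a limit added after seeing the data, stayed at 2 higher and at 3 lower, or 4 lower without a filter. With the replicate number as a block the list had 11 higher and 12 lower, where of all 15199 genes 5765 were higher and 6238 lower. Deviations of same-numbered libraries correlated at 0.012, -0.0028 and 0.018, and not every library correlated best with its own number. No pairing by number showed in these values, which cannot exclude one that the labels leave unstated. Within a label, counts differed by 1.44 to 2.04 times the sampling noise (chi-square per degree of freedom). At a few counts per library, as for Eda2r, Ddb2, Trp63 and Perp, depth limits the size of the difference. No group had enough libraries for an outlier test, and a planned comparison of protein sequences was not run.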

Other observations

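The neighbours of Cdkn2a on chromosome 4 were looked at after its values were seen. Cdkn2b, which encodes the kinase inhibitor p15, had 3, 1 and 1 counts in null-labelled and 1042, 681 and 793 counts in wild-type-labelled libraries. Mtap, an enzyme of methionine salvage, stood at 181, 179 and 182 CPM in null-labelled and 409.8, 414 and 423 CPM in wild-type-labelled libraries.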
